A study of Mus musculus with 13 samples.

Results

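Lfng and B4galt5 are mRNAs of Golgi glycosyltransferases, and both were found among the RNAs that co-precipitated with P23 (Ptges3), an HSP90 co-chaperone that also binds RNA. They were taken by their Ensembl identifiers, ENSMUSG00000029570 for Lfng and ENSMUSG00000017929 for B4galt5, and are 2 of the 52 RNAs of the deposited table. RNA was sequenced from immunoprecipitations (IPs) of RAW 264.7 cells, a mouse macrophage line, which were UV-crosslinked and lysed for cytoplasmic extract. IPs with an antibody against P23 were compared with IPs with an antibody against luciferase (LUC), a protein that these cells lack. Untreated cells (0 h) are represented by 3 libraries for each antibody. Cells that received 10 ng/ml bacterial lipopolysaccharide (LPS) for 2 h are represented by 3 libraries for P23 and 2 for LUC, and each time point has 1 library of input RNA. The cells of all groups were of the same line and carried no added genetic change, and the only treatment was LPS. The authors removed the other LUC IP of 2 h as an outlier, and they kept only RNAs that they had called higher in P23 than in LUC IPs at 0 h. The difference between P23 and LUC at 0 h is therefore given below as a description with no test, and every comparison that uses the 0 h libraries rests partly on libraries that chose these RNAs.

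Lfng encodes Lunatic fringe, a glycosyltransferase that adds N-acetylglucosamine to O-linked fucose on the extracellular repeats of Notch receptors. This step in the Golgi changes how a Notch receptor responds to its different ligands. B4galt5 encodes a galactosyltransferase that adds galactose to glucosylceramide and so makes lactosylceramide, from which most complex glycosphingolipids are built. Both enzymes act on molecules that are on the way to the cell surface, and LPS is the ligand by which Toll-like receptor 4 activates macrophages. Of 18 genes of a list for Notch glycosylation and signaling the table holds 1, Lfng. Of 13 genes of a list for galactosyltransferases and glycosphingolipid synthesis it holds 1, B4galt5. The other members of both pathways, among them the fringe paralogs and the Notch receptors, were not analysed here.

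The Lfng gene lies on chromosome 5 (chr5:140607320-140615545, plus strand, GRCm38), and its annotated exons cover 2.505 kb in 9 blocks. B4galt5 lies on chromosome 2 (chr2:167298444-167349183, minus strand), with 4.308 kb of exons in 10 blocks. No other gene of the GENCODE annotation overlaps either of them, so the counting of reads without regard to strand could not mix them with an antisense partner.

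Because the study had looked at stretches of U and G in the 3′UTRs of P23-bound mRNAs, windows of 30 nt were scored in the 3′UTRs of both mRNAs by the number of hexamers made of U and G alone, out of 25 possible positions. The motif searched was thus any 6 consecutive bases that are each U or G, on the transcribed strand, with overlaps counted. The window with the highest count in each mRNA and the highest window away from the longest U/G stretch are shown. Each was chosen by its count within its own 3′UTR, so the choice does not show that the mRNAs share a sequence. Capitals mark bases inside such hexamers (RefSeq transcripts, GRCm38.p6).
Lfng, 701 to 730 nt after the stop codon, chr5:140615174-140615203, plus strand: aGGUGGGGGGUGGUUGUUUUcUGGGGUGGG
Lfng, 115 to 144 nt after the stop codon, chr5:140614588-140614617, plus strand: guguaugucuauaUUUGUGUGUUUGUGUGG
B4galt5, 438 to 467 nt after the stop codon, chr2:167300869-167300898, minus strand: GGGGUUUUUGUUUGUUUGGGUUUUUUUGUU
B4galt5, 1583 to 1612 nt after the stop codon, chr2:167299724-167299753, minus strand: gggauguagauaUGUGGGGGUGGGGUUUUG

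The leading Lfng window held 18 of the 25 possible hexamers, and 0.256% of all 30-nt windows in 19345 mouse 3′UTRs held at least as many. The leading B4galt5 window held all 25, as did 0.0779% of windows. Each is the highest window of its 3′UTR, which makes it rare among single windows. Compared by highest window, 13.6% of 3′UTRs reached the count of Lfng and 6.93% that of B4galt5. Among the 44 mRNAs of the table with a RefSeq 3′UTR, the Lfng window ranked 11, and B4galt5 shared rank 1 with others. The B4galt5 window is the start of a stretch of 120 nt with no base other than U or G (438 to 557 nt after the stop codon, chr2:167300779-167300898). This stretch was the longest of its kind in the 19345 3′UTRs, where the next longest measured 104 nt and the median of the longest stretch per 3′UTR was 11 nt. It was made of 87 U and 33 G, and all 120 bases are soft-masked as repeat sequence in the reference. Lfng had no such block. Its longest U/G-only stretch was 19 nt, with 8 U and 11 G and no soft-masked base, and 17.4% of 3′UTRs had one at least as long. The other Lfng window shown, at 115 to 144 nt, was soft-masked at all 30 bases. The other B4galt5 window, at 1583 to 1612 nt, was soft-masked at 29 of 30.

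Over the whole 3′UTR the density of U/G-only hexamers was nearly the same in the 2 mRNAs. Lfng had 90 such hexamers in 1072 nt, or 8.40 per 100 nt, and B4galt5 had 8.02 per 100 nt over 2892 nt. The median was 2.88 per 100 nt over all 3′UTRs and 3.83 over the 44 mRNAs of the table that had a RefSeq 3′UTR, in which Lfng ranked 3 and B4galt5 ranked 5. A density as high as that of Lfng was found in 2.67% of all 3′UTRs, and one as high as that of B4galt5 in 3.06%. The hexamers were distributed differently. In B4galt5 the 120-nt stretch alone held 115 hexamers and the rest of the 3′UTR 117, and without it the density was 4.22 per 100 nt, which 22.2% of 3′UTRs reach. In Lfng the longest stretch held 14 of the 90, and the density without it was 7.22 per 100 nt, which 4.17% reach. Both of these shares refer to the full density of the other 3′UTRs, with their own longest stretch kept. They are therefore not a like comparison. A count of such hexamers describes the sequence and does not locate a P23 binding site.

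**Figure D1:**
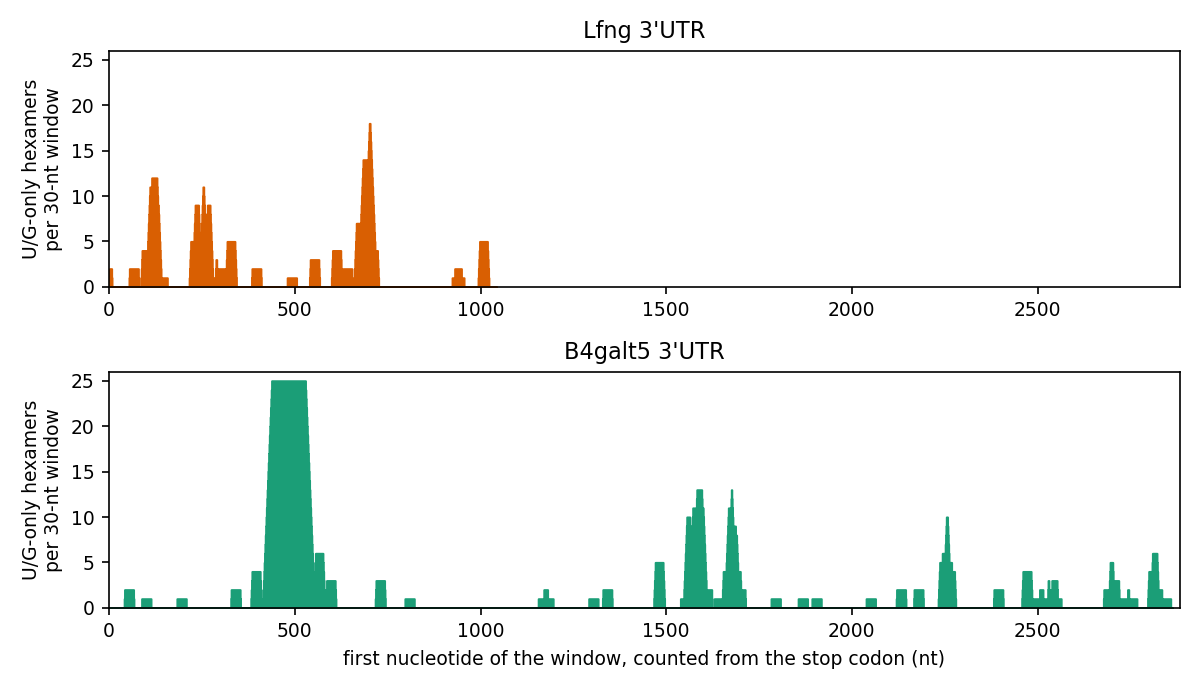
U/G-only hexamers per 30-nt window (vertical axis, 25 at most) along the 3′UTRs of Lfng and B4galt5, against the position of the first base of the window in nt after the stop codon. Lfng has several separate peaks up to 18, while B4galt5 has a plateau at 25 that spans its 120-nt stretch and lower peaks of 13 or less elsewhere.

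The libraries were set on one scale by dividing each count by the size factor that the deposited variance-stabilized values contain, which gave a normalized count. Size factors ranged from 0.461 to 1.02 for the IPs and reached 6.10 (0 h) and 5.65 (2 h) for the inputs, so the inputs carry more reads. The IPs held 3751 to 11866 reads over the 52 RNAs. The counts of P23 IP replicates 2 and 3 agreed within the sampling noise over the RNAs of the table, both at 0 h (chi-square p = 0.366 over 52 RNAs) and at 2 h (p = 0.374 over 51 RNAs), while all other pairs within a group differed. Each of these pairs was counted as 1 sample in the means and standard deviations below, although the labels describe them as independent biological replicates. The SDs of the P23 IPs therefore leave out the spread between replicates 2 and 3, and are not like those of the LUC IPs. The fits kept all 11 IP libraries. Of 8 listed macrophage markers the table holds 3, and of the listed T cell, B cell and fibroblast markers it holds 0. Among the macrophage markers held, Tnfrsf11a and Cd101 were counted in every library. Since the table holds only RNAs chosen by P23 over LUC at 0 h, the markers it lacks do not tell which cells were present.

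Lfng was a low-count RNA, with 16 to 95 reads in an IP library. P23 IPs of untreated cells gave normalized counts of 91.8, 77.5 and 93.3, against 63.0, 37.5 and 54.0 for LUC. After LPS, P23 IPs gave 31.9, 29.9 and 30.6, against 28.9 and 25.2 for LUC. The highest levels were thus those of the P23 IPs of untreated cells, and at 2 h all 5 IPs lay close together. In the inputs Lfng had 173 reads at 0 h and 66 at 2 h, which are normalized counts of 28.4 and 11.7.

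B4galt5 was counted with 145 to 537 reads per IP library, so its values carry less counting error than those of Lfng. P23 IPs of untreated cells gave normalized counts of 575.4, 479.1 and 527.4, against 423.4, 248.5 and 399.0 for LUC. After LPS, P23 IPs gave 321.9, 493.9 and 471.2, against 262.2 and 277.7 for LUC. P23 IP replicate 1 at 2 h and LUC IP replicate 2 at 0 h lay well below the other libraries of their groups. The P23 IPs were above the LUC IPs of the same time point, which at 0 h is how the RNAs were chosen and at 2 h held without overlap for 63.5% of the 52 RNAs. The P23 IPs of 0 h and 2 h overlapped. The inputs held 417 and 353 reads of B4galt5, which are normalized counts of 68.3 at 0 h and 62.5 at 2 h.

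**Figure D2:**
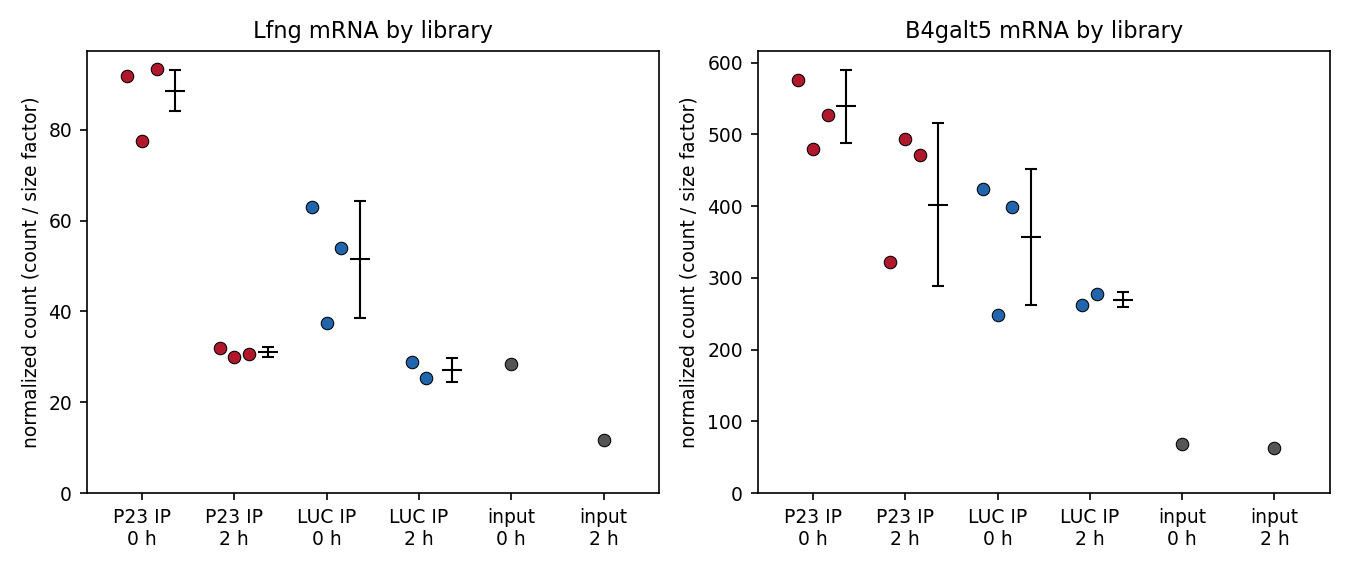
Normalized counts (count divided by size factor) of Lfng on the left and B4galt5 on the right, with 1 point per library. Black bars give the mean and SD of a group (n = 3 for LUC at 0 h, otherwise 2, since P23 IP replicates 2 and 3 count once), and the single inputs have none. The P23 IPs of Lfng lie between 77.5 and 93.3 at 0 h and between 29.9 and 31.9 at 2 h, while the P23 IPs of B4galt5 overlap between the time points.

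The group means of Lfng fell in the order P23 at 0 h (88.6 ± 4.6, SD, n = 2), LUC at 0 h (51.5 ± 12.9, n = 3), P23 at 2 h (31.1 ± 1.1, n = 2) and LUC at 2 h (27.1 ± 2.6, n = 2). The order for B4galt5 was P23 at 0 h (539.3 ± 51.0, n = 2), P23 at 2 h (402.2 ± 113.6, n = 2), LUC at 0 h (357.0 ± 94.7, n = 3) and LUC at 2 h (269.9 ± 10.9, n = 2). For both mRNAs and both antibodies the mean at 0 h was above that at 2 h, but for Lfng the untreated LUC IPs stood above the LPS-treated P23 IPs and for B4galt5 they did not. The neighbours P23 at 2 h and LUC at 0 h of B4galt5 overlapped, as did P23 at 0 h with P23 at 2 h and LUC at 0 h with LUC at 2 h. Per kb of exon, the normalized count of B4galt5 was the higher of the 2 in every library, with means of 125.2 against 35.4 in the P23 IPs at 0 h. The input values at 0 h were much closer, at 15.9 for B4galt5 and 11.3 for Lfng per kb. At 2 h the input values were 14.5 and 4.66, beside means of 93.4 and 12.4 in the P23 IPs of that time.

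Recovery over input, which is the normalized count in an IP divided by that in the input of the same time, differed more between the 2 mRNAs than between the antibodies. At 0 h the P23 IPs held a mean of 3.13 times the input level for Lfng and 7.89 times for B4galt5, where the median of the 52 RNAs was 2.62. The LUC IPs held 1.82 times for Lfng and 5.22 times for B4galt5, with a median of 1.53. B4galt5 therefore ranked 6 of 52 by its recovery with the control antibody and 10 of 52 with the P23 antibody, and Lfng ranked 19 and 24. At 2 h the P23 IPs held 2.66 times the input for Lfng and 6.44 times for B4galt5, and the LUC IPs 2.32 and 4.32 times. These ratios rest on 1 input per time point and have no error of the input, and the scale of inputs against IPs is that of the deposited size factors.

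At 0 h, the contrast by which the RNAs had been chosen, the fitted log2 difference of P23 over LUC was 0.79 (SE 0.18) for Lfng and 0.57 (SE 0.20) for B4galt5. The ratios of the mean normalized counts were 1.72 and 1.51. The median log2 difference of the 52 RNAs was 0.66, so Lfng lay 0.13 above it and B4galt5 0.10 below it, at ranks 17 and 35 from the highest. The size of this difference depends on libraries being scaled over all genes. When the libraries were scaled on the 52 RNAs alone, which removes what they share, the value was 0.14 for Lfng and turned to −0.074 for B4galt5 with TMM factors.

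At 2 h, in libraries that had not been used to choose the RNAs, the difference between P23 and LUC was tested with edgeR's quasi-likelihood test over the 52 RNAs. Neither mRNA passed an adjusted p of 0.05. The log2 difference of Lfng was 0.19 (SE 0.28, adjusted p = 0.60, edgeR), and its ratio of means was 1.15. Without LUC IP replicate 1 or 2 of 2 h it was 0.28 or 0.089, not called either way. That of B4galt5 was 0.67 (SE 0.24, adjusted p = 0.074, edgeR), with a ratio of means of 1.49. In both mRNAs all 3 P23 IPs lay above both LUC IPs, which was true of 63.5% of the 52 RNAs, while 7.69% were called higher by edgeR (4 RNAs, and 2 with the agreeing P23 libraries counted once). The median of the 52 RNAs was 0.40, so Lfng lay 0.20 below it and B4galt5 0.27 above it. B4galt5 was called in a fit of the 2 h IPs alone (adjusted p = 0.016, edgeR), by DESeq2 (adjusted p = 0.037), and when P23 IP replicate 1 of 0 h (adjusted p = 0.037, edgeR), P23 IP replicate 1 of 2 h (0.017) or LUC IP replicate 2 of 0 h (0.023) was left out. It lay further from the threshold when the agreeing P23 libraries were counted once (log2 difference 0.59, adjusted p = 0.20, edgeR). Scaled on the 52 RNAs with TMM factors, the value was −0.28 for Lfng and 0.19 for B4galt5, neither of them called.

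Whether P23 over LUC changed between the time points was tested as the interaction of the same fit. The log2 change was −0.60 for Lfng (SE 0.33, adjusted p = 0.47, edgeR) and 0.10 for B4galt5 (SE 0.31, adjusted p = 0.96, edgeR), beside a median of −0.26 over the 52 RNAs. Of these, 1.92% were called lower. Of the 52 values 42 were below 0, Lfng among them and B4galt5 not, and neither mRNA passed the threshold. The value of B4galt5 was −0.012 when the agreeing libraries were counted once. Because RNAs were chosen for being high in P23 and low in LUC in the 0 h libraries, values of this change are not independent of that choice.

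The change with LPS was next compared within each antibody. In the P23 IPs Lfng fell by 1.50 on the log2 scale (SE 0.19, adjusted p = 7.6e-06, edgeR), a level 2.83-fold lower at 2 h, and no library of 2 h reached one of 0 h. This SE and p treat the agreeing P23 libraries as separate samples, and Lfng was still called lower when they were counted once. Of the 52 RNAs, 40.4% were called lower in this comparison and 40.4% had groups that did not overlap with 2 h below 0 h, so a call alone was common (21 RNAs, and 17 with the agreeing libraries counted once). The median was −0.32, and Lfng had the value of rank 4 from the lowest, 1.19 below the median. B4galt5 had a log2 difference of −0.29 (SE 0.20, adjusted p = 0.22, edgeR), which was 0.02 above the median and was 0.012 with TMM factors over the table, and leaving out 1 library gave −0.41 (without P23 IP replicate 2 of 2 h) to −0.13 (without replicate 1 of 2 h), not called either way.

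In the LUC IPs Lfng also fell, by 0.90 on the log2 scale (SE 0.26, adjusted p = 0.012, edgeR), a level 1.87-fold lower at 2 h. Here 11.5% of the 52 RNAs were called lower and 28.8% had groups that did not overlap in this direction, Lfng among both. Lfng had 16 and 18 reads in the LUC IPs at 2 h, and without LUC IP replicate 2 of 2 h the value was −0.80 with an adjusted p of 0.13 (edgeR). B4galt5 had a log2 difference of −0.39 in the LUC IPs (SE 0.24, adjusted p = 0.22, edgeR), and it was called without LUC IP replicate 2 of 0 h (−0.60, adjusted p = 0.033, edgeR) and with the total count of the table as library size (−0.43, adjusted p = 0.019, edgeR). The fall of Lfng in both IPs was called with each of the 3 scalings over the 52 RNAs as well. Lfng lay below the line of equal change in the plot of both IPs, but the difference of its 2 falls is the interaction above and was not past the threshold.

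**Figure D3:**
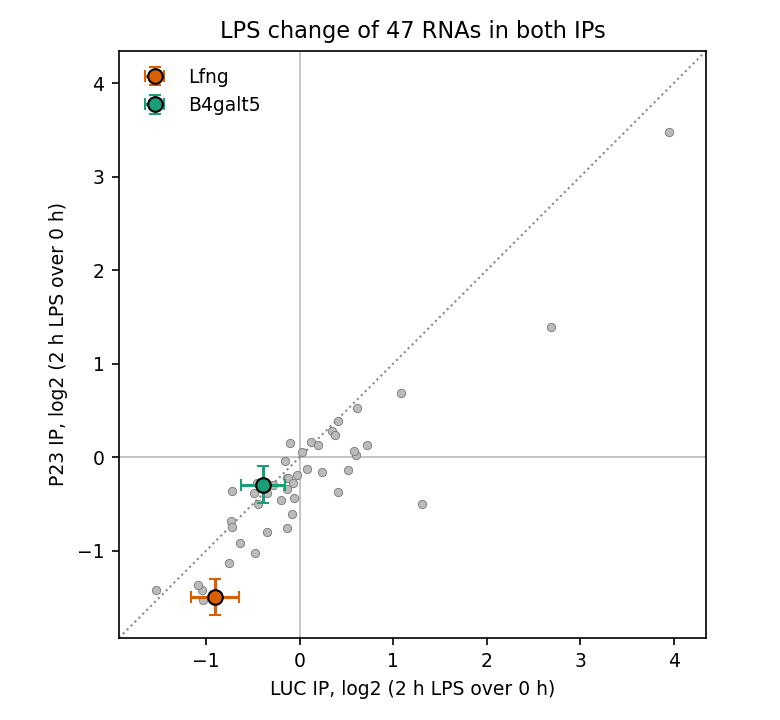
Fitted log2 change from 0 h to 2 h of LPS in the LUC IPs (horizontal axis) and the P23 IPs (vertical axis) for the 47 RNAs with a mean normalized count of 20 or more in the IPs, with standard errors for Lfng (−0.90, −1.50) and B4galt5 (−0.39, −0.29). The dotted line marks equal change in both IPs, and 37 RNAs lie below it.

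In the input RNA Lfng was lower at 2 h as well, by a log2 ratio of −1.28 (exact 95% Clopper-Pearson interval −1.71 to −0.86), that is 2.43-fold (1.82 to 3.28). This was the lowest ratio of the 51 RNAs counted in both inputs, of which 3.92% were at least 2-fold lower. B4galt5 had a log2 ratio of −0.13 (−0.34 to 0.08), beside a median of 0.01. The inputs are 1 library each, so the intervals cover counting error only and no test between conditions can be made. In such bulk RNA a lower level per cell and fewer cells that carry the mRNA cannot be told apart. The log2 fall of Lfng in the input thus had a size between those in the LUC and P23 IPs, and for B4galt5 all 3 values were between −0.39 and −0.13.

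The ratio of the 2 mRNAs within a library needs no size factor. It describes Lfng relative to B4galt5, so any change of B4galt5 enters it as well. Among untreated cells, Lfng counts came to 16.0%, 16.2% and 17.7% of B4galt5 counts with P23, and to 14.9%, 15.1% and 13.5% with LUC. After LPS they came to 9.90%, 6.06% and 6.50% with P23, and 11.03% and 9.09% with LUC. Every IP of 2 h was therefore below every IP of 0 h, whichever antibody was used. The exact 95% intervals for counting error overlapped for LUC. They were 6.14 to 18.5% and 5.28 to 14.7% at 2 h, against 9.70 to 22.0%, 9.85 to 22.4% and 9.93 to 18.1% at 0 h. The interval of P23 IP replicate 1 at 2 h (5.92 to 15.7%) also overlapped those of the P23 IPs at 0 h. Those of replicates 2 and 3 (up to 9.32% and 10.1%) did not. In the inputs the ratio was 41.5% at 0 h (exact 95% interval 34.5 to 49.6) and 18.7% at 2 h (14.2 to 24.4), above all IPs of the same time, which is the higher recovery of B4galt5 with both antibodies seen from the other side.

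On the log2 scale the ratio differed between 2 h and 0 h by −1.18 in the P23 IPs, by −0.53 in the LUC IPs and by −1.15 in the inputs (exact 95% interval −1.63 to −0.68). The exact two-sided permutation test over libraries gave p = 0.1 for the P23 IPs and p = 0.2 for the LUC IPs, each the smallest p that the design allows (0.1 for 3 against 3 and 0.2 for 3 against 2), and 0.3 for both after Benjamini-Hochberg adjustment over the family of 3 tests. Between P23 and LUC IPs at 2 h the log2 ratio differed by −0.45 (exact permutation p = 0.4, also 0.4 adjusted, and −0.35 with exact p = 0.667 when the agreeing P23 libraries were counted once), with P23 IP replicate 1 inside the range of the LUC IPs. At 0 h the difference was 0.20, with no test. With the agreeing P23 libraries counted once, the fall in the P23 IPs was −1.06, and the smallest p for 2 against 2 is 0.333.

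**Figure D4:**
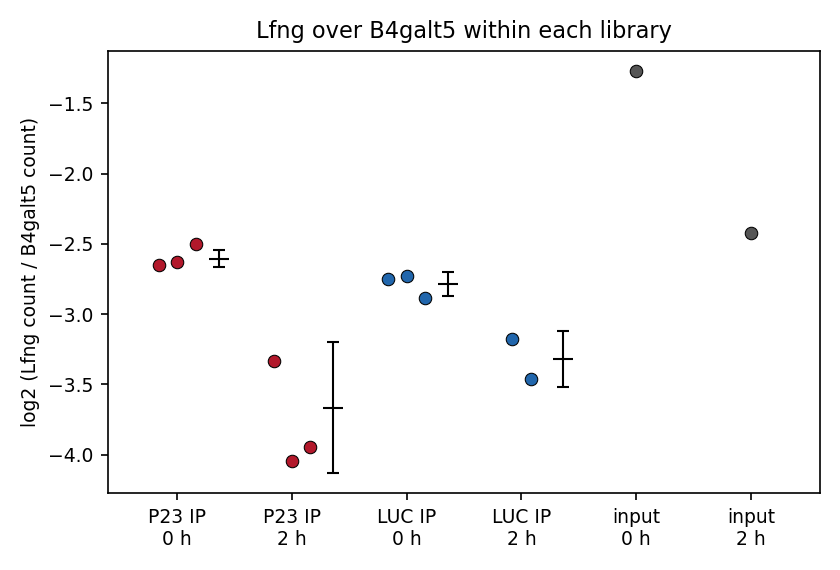
Log2 ratio of the raw counts of Lfng and B4galt5 within each library, with 1 point per library and the mean and SD of each IP group in black (n as in the plot of normalized counts). The 5 IPs of 2 h lie below the 6 IPs of 0 h, and the inputs lie above the IPs of their time.

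The RNAs of the table whose pattern was most like each mRNA were found by Pearson's r of the variance-stabilized values over the 11 IP libraries, among the 46 other RNAs with a mean normalized count of 20 or more. These values share library, depth and the choice at 0 h, and are given as a description. Closest to Lfng were Zbtb7b (r = 0.977), a transcription factor known from T cell lineage choice, and Rfx5 (r = 0.940), a factor of MHC class II transcription. The median r to Lfng was 0.565. Zbtb7b was also called lower at 2 h in both IPs, with log2 values of −1.13 in the P23 IPs and −0.76 in the LUC IPs, and its input log2 ratio was −0.55. Rfx5 was called lower in the P23 IPs (−0.92) but not in the LUC IPs (−0.63, adjusted p = 0.097, edgeR), and its input ratio was −0.62.

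Closest to B4galt5 were Isoc2a (r = 0.948), Nudt3 (r = 0.939), which encodes a Nudix hydrolase, and Kmt5a (r = 0.934), which encodes a histone H4 lysine methyltransferase, with a median r of 0.704. These 3 were not called between 0 h and 2 h in either IP (Nudt3 had an unadjusted p of 0.049 and an adjusted p of 0.11 in the LUC IPs, edgeR), with log2 values from −0.39 to −0.22 in the P23 IPs and from −0.49 to −0.13 in the LUC IPs. Their input log2 ratios lay between −0.07 and 0.09. Between Lfng and B4galt5 themselves r was 0.669. The neighbours did not share the U/G content of the 2 mRNAs throughout, since Isoc2a had the highest density of the 44 mRNAs (12.6 per 100 nt) while Rfx5 had 2.69 and Kmt5a 3.35 per 100 nt. Zbtb7b with 4.73 and Nudt3 with 4.98 lay above the median of the 44 mRNAs (3.83).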

How the data were processed

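RNA of P23 IPs, LUC IPs and inputs of RAW 264.7 cells was read from 1 deposited table of 52 RNAs and 13 libraries. The authors made the raw counts with Trimmomatic 0.33, FastQC 0.11.2, TopHat 2.0.14 (GRCm38) and HTSeq 0.6.1 without regard to strand, and the variance-stabilized log2 values from these counts. Deposited log2 fold changes, p-values and FDR of the authors were not used. Columns left unmapped numbered 0. Sums over 52 RNAs are not library sizes, so size factors were recovered from the variance-stabilized values and entered edgeR 4.0.16 (quasi-likelihood test, 4 group means, 11 IP libraries, threshold 0.05 after Benjamini-Hochberg adjustment over the 52). The fit was tested on simulated data. Alternatives were TMM, median-of-ratios and total-count scalings over the table, DESeq2 1.42.0, limma 3.58.1 on variance-stabilized values, a filter at a mean of 20, fits of the compared groups, a replicate block, and leaving out each library. Counting the agreeing P23 libraries once was added after the data were seen. For each gene the curated RefSeq transcript with the longest 3′UTR was used. The named RNAs are both mRNAs, the 3 most alike to each, and listed genes in the table. The values of 1 RNA are not reported here. The members and lists were chosen with earlier results of these data known. The paper and the labels name the P23 antibody differently. Gene positions came from GENCODE M21. With 16 to 95 reads per IP library, counting error is large for Lfng.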

Additional observations from a re-analysis of the deposited data

How the results depend on the processing

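Scalings over the 52 RNAs moved the median P23 over LUC by −0.66 at 0 h and −0.46 at 2 h with TMM factors, since these RNAs were chosen for that difference. With TMM, median-of-ratios and total-count scaling, P23 over LUC at 0 h was 0.14, 0.12 and 0.035 for Lfng and −0.074, −0.090 and −0.18 for B4galt5, and at 2 h −0.28, −0.28 and −0.46 for Lfng. TMM factors turned the P23 IP change of B4galt5 with LPS to 0.012, and total counts gave −0.43 in the LUC IPs (called). P23 over LUC of B4galt5 at 2 h was called by DESeq2 (0.67) and in the fit of the 2 h IPs alone (0.67). Counting the agreeing libraries once gave −0.012 for the change of P23 over LUC of B4galt5.

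Leaving out 1 library at a time gave 0.56 to 0.84 for P23 over LUC of B4galt5 at 2 h (called without P23 replicate 1 of 0 h, LUC replicate 2 of 0 h or P23 replicate 1 of 2 h), −0.026 to 0.31 for its change, −0.60 to −0.27 for its LPS change in LUC IPs, and −1.09 to −0.78 for that of Lfng. P23 over LUC of Lfng at 2 h lay between 0.089 and 0.28, and the LPS change of B4galt5 in P23 IPs between −0.41 and −0.13, neither called. The fall of Lfng in P23 IPs kept its call throughout (−1.58 to −1.45). The number of RNAs called for P23 over LUC at 2 h was 5, with 2 to 14 when a library was left out, 3 with TMM, median-of-ratios or the agreeing libraries counted once, 8 with total counts, 11 with DESeq2 and 14 with the 2 h IPs alone. In the LUC IPs 14 were called, with 6 to 19 when a library was left out and 24 with total counts.

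Deviations from the group mean correlated at over 0.1 in 3 of 15 pairs of same-numbered libraries (−0.41 to 0.45). Pairs with different numbers were not compared, so this cannot decide whether the numbers pair the libraries. The replicate block gave 0.15 for P23 over LUC of Lfng at 2 h, 0.62 for B4galt5, and −1.50 and −0.85 for the LPS change of Lfng in P23 and LUC IPs, and changed no call of either mRNA. Lfng had 16 to 22 reads in each IP at 2 h.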
